A study of Mus musculus with 8 samples.

Results

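The interleukins and their receptors were taken as genes whose symbol begins with Il and a number, the name given to secreted signalling proteins of blood and immune cells and to the chains that bind them. The arrays carried a named probe for 80 of the 83 such genes of the reference, out of 20145 named genes on the array. These 80 were 39 receptor chains, 37 ligands, 2 natural inhibitors (Il1rn and Il18bp) and 2 others, the enzyme gene Il4i1 and the RNA Il1bos. Il11ra2, Il12b and Il4i1b had no named probe. In cells given doxycycline to induce Runx1, set against cells given none, the IL-12 and IL-23 receptor chain gene Il12rb1 rose 18.2-fold by 1 of its probes, while the ligand gene Il19 fell 6.18-fold. The IL-18 receptor chain gene Il18rap rose as well, but it entered the test through the induced arrays alone. Its call was lost with another background correction. When each induced array was set against the uninduced array of its own replicate number, 13 of 44 interleukin genes tested rose, among them Il2rg, Il17rc and Il18, where 9.37% of all genes rose, and 6 fell, among them the IL-1 receptor genes Il1r1 (a call lost with spike-in scaling) and Il1r2, where 6.8% of all genes fell. Of these 19, 7 were not above background on all arrays and had passed the filter through the group where they were high. In that comparison by replicate number, the 31 genes read on all 6 arrays gave 7 that rose and 5 that fell, or 38.7%, against 14.8% of all genes so read. Without the replicate number, 6.82% of the 44 were called, against 6.29% of all genes. With it and spike-in scaling, 35 of the 44 rose and 3 fell, where 86.8% of all genes were called. With it and that other background correction, 7 rose and 11 fell, where 30.6% of all genes were called.

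Interleukins act by bringing together receptor chains on the cell surface, often a chain private to 1 cytokine and a chain that several cytokines share, such as the common gamma chain Il2rg, gp130 (Il6st) and the IL-1 receptor accessory protein Il1rap. Chains of the IL-2, IL-6, IL-10 and IL-12 groups signal through JAK kinases and STAT factors, whereas those of the IL-1 and IL-18 group signal through Myd88 and IRAK kinases, and those of the IL-17 group through the adaptor Traf3ip2. IL-1 and IL-6 family cytokines also act on endothelium, and IL-3 and IL-6 family cytokines are known for their action on early blood cells.

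The cells were of strain C57BL/6 and carried a doxycycline-inducible Runx1 (iRUNX1, a Tet-on system), Runx1 being a transcription factor needed for blood cells to arise from endothelium. The induced cells received 0.3 µl/ml doxycycline overnight, in the unit the labels give, and the uninduced cells received none. In both groups, embryonic stem cells had formed embryoid bodies for 3.25 days, cells with the receptor Flk-1 had been selected, cultured and selected again, and hemogenic endothelium, from which blood cells emerge, had been grown for 2 days. Total RNA of 3 induced and 3 uninduced biological replicates and of 1 technical repeat per group was hybridised to Agilent 1-colour arrays. The cultures of both groups were given cytokines from outside. The first medium held 10 µg/l IL-6, and the second held oncostatin, a ligand outside the family as defined here that signals through gp130, at 10 µg/ml. How separate the replicates were rests on the labels, which do not say whether the line is 1 clone. No array of doxycycline-treated cells without the inducible gene was analysed here, so each difference is one between cells with and without doxycycline.

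Levels are log2 processed signals relative to the array's 75th percentile, which lay between 543 and 973 for the induced replicates and between 338 and 699 for the uninduced replicates. Between 55.4% and 70.3% of the spots were well above background, the flag the scanner software gives to a spot it tells apart from its surroundings. The probe that stood for Runx1 itself averaged -5.60 in induced and -4.57 in uninduced cells (difference -1.03, adjusted p 0.126), and no label says whether the inducible construct contains its target, so it does not check the group labels. The median difference of all 14509 genes tested was 0.09, and 1.22 when arrays were scaled to spike-in controls, so all differences below are relative to an array's overall signal. All 9 endothelial markers were well above background on all 6 arrays, and 3 of them fell. Of 6 early blood markers 3 rose, and their summed linear signal, relative to the 75th percentile, was 9.70 to 26.0 on induced and 2.03 to 5.91 on uninduced arrays. Of 8 mast cell and basophil markers, 2 rose and Ms4a2 and Fcer1a were on no array above background, and the sum was 7.07 to 8.99 on induced and 2.80 to 3.42 on uninduced arrays. Of 6 macrophage and granulocyte markers on the array 1 rose and 1 fell, with sums of 34.4 to 52.8 on induced and 50.3 to 58.5 on uninduced arrays. Of 6 T, B and NK cell markers, 3 were well above background on all 6 arrays and did not pass. Cd3g, Cd3d and Ncr1 were on no array above background, and the sums were 8.87 to 10.2 on induced and 7.91 to 15.1 on uninduced arrays. Of 4 endoderm and epithelial markers 2 were tested and both rose, with sums of 4.64 to 6.33 on induced and 0.71 to 1.34 on uninduced arrays. Of 6 fibroblast and mesenchymal markers 1 fell, with sums of 54.4 to 68.9 on induced and 45.7 to 78.7 on uninduced arrays, and of 3 cardiac markers 2 were tested and did not pass, with Myl7 on no array above background and sums of 3.25 to 19.4 on induced and 9.74 to 52.2 on uninduced arrays. The part of these markers' cells in the results below was not tested, and in such bulk RNA fewer cells of a type and less RNA per cell cannot be told apart.

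Of the 80, 31 could be told from background on all 6 replicate arrays, 19 of them receptors and 10 ligands, and 24 were on none, 10 receptors and 12 ligands. Of all 20145 named genes, 13468 were read on all 6 arrays. The ligands on no array included the classical T cell cytokine genes Il2, Il9, Il13 and Il21, and Il10, Il12a, Il23a and Il1a. Among receptors, Il2ra, Il21r, Il23r and Il18r1, which encodes the ligand-binding chain of the IL-18 receptor, were on none either. The test took a gene only if its probe stood well above background on each of the 3 arrays of 1 group or the other, and 44 genes met this, 25 of 39 receptors and 17 of 37 ligands, with Il18bp and Il4i1. Of these, 11 entered through the induced arrays alone and 2, Il13ra2 and Il33, through the uninduced arrays alone. A further 12 were above background on some arrays but too few to be tested, among them Il1b, on 2 induced and 0 uninduced arrays, and Il7, which encodes a growth factor of lymphoid progenitors, on 1 array of each group. Il17f and Il18rap were above background on all 3 induced arrays and on 0 uninduced ones.

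**Figure D1:**
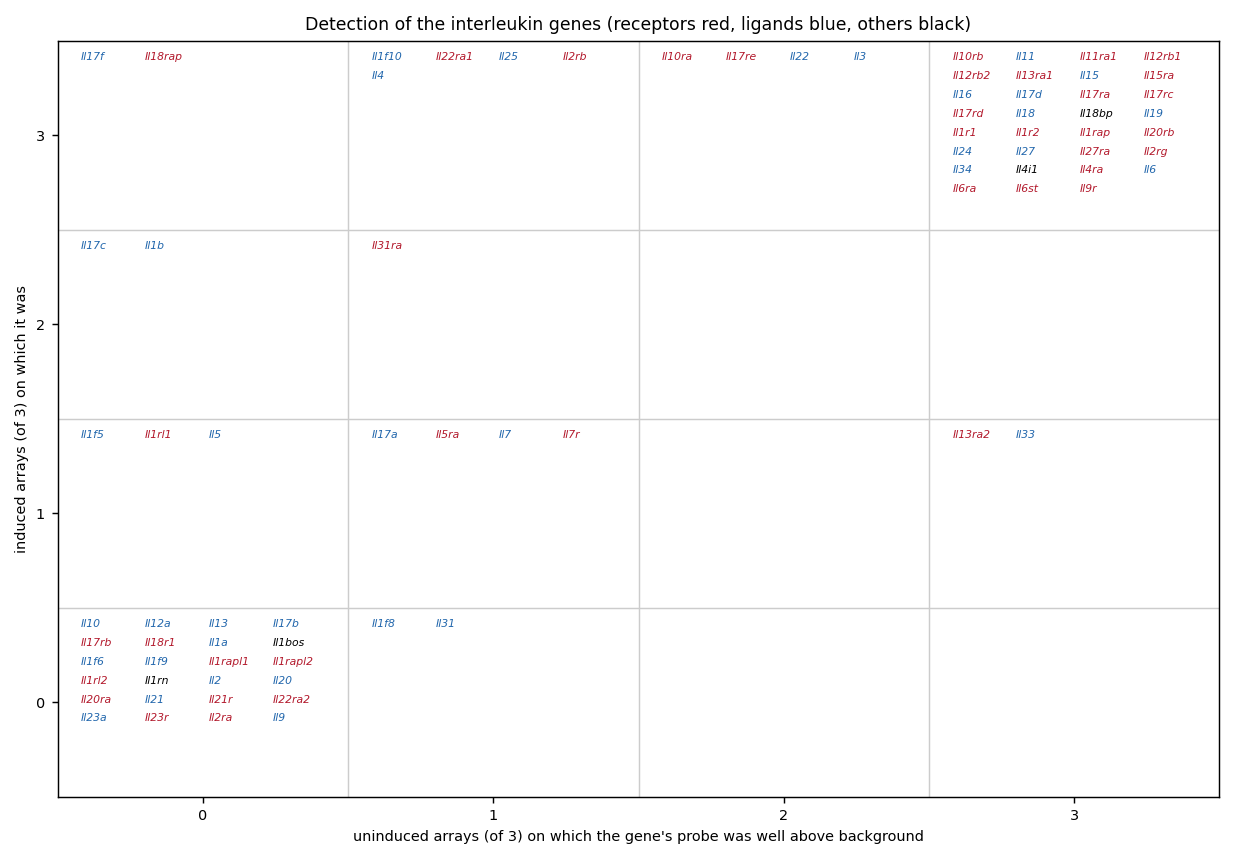
Interleukin genes placed by the number of induced arrays (vertical axis, 0 to 3) and of uninduced arrays (horizontal axis, 0 to 3) on which the probe was well above background, with receptors in red, ligands in blue and others in black. The top right cell holds the 31 genes read on all 6 arrays and the bottom left cell the 24 read on none.

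The groups were compared gene by gene with limma, with p adjusted over all 14509 genes and a threshold of 0.05. Of the 44 interleukin genes 2 rose, 1 fell and 41 did not pass, or 6.82% called, against 6.29% of all genes, of which 4.14% rose and 2.16% fell. With the replicate number as a block, a fit that compares arrays within each replicate number, 13 rose and 6 fell (of which Il6 and Il11 lay above 0 with spike-in scaling), or 43.2%, against 16.2% of all genes, of which 9.37% rose and 6.8% fell. The check of whether the numbers pair the arrays is given with the processing. Arrays of the 2 groups did not overlap for 13 interleukin genes that were higher in induced cells and 2 that were lower, against 19.6% and 8.7% of all genes. A gene can enter the test through 1 group alone because it is high there, which bears on all these counts. Such entry did not require a difference: Il22 and Il3, which entered through the induced arrays alone, differed by -0.03 and 0.08. The lowest signal counted as above background also varied by array, from -6.43 on induced replicate 1 to -4.72 on uninduced replicate 3. Among the 31 read on all 6 arrays, the block gave 7 that rose and 5 that fell (38.7%, against 14.8% of all genes so read), and the fit without it 1 of each. The median difference of the 44 was -0.03, with 21 above 0 and 23 below. This balance is relative to each array's 75th percentile: with spike-in scaling and the block, 35 of the 44 rose and 3 fell. Under that setting 86.8% of all genes were called. All 19 genes called with the block differed the same way in all 3 pairs, and 8 of them were still called whichever pair was left out (Il12rb1, Il15, Il18, Il19, Il1r1, Il1r2, Il2rg and Il33). The block fit tests these same 3 pair differences, so the shared direction largely follows from how the genes were picked. No share among all genes so called is given.

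**Figure D2:**
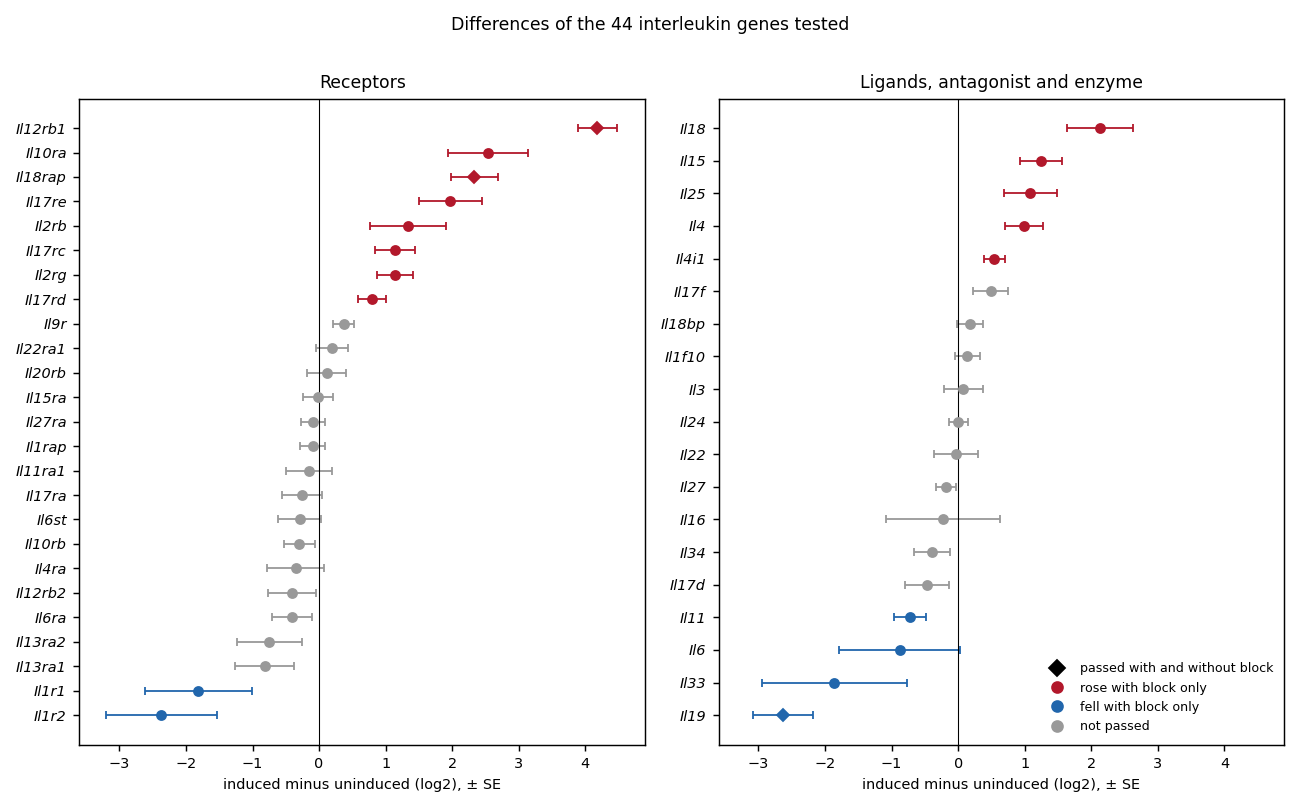
Difference in log2 level, induced minus uninduced, with its standard error from the fit without a block, for the 25 receptors (left) and the 19 ligands and other genes (right) tested. Diamonds mark genes that passed with and without the replicate block, red and blue circles those that passed with it alone, and grey circles those that passed with neither, so that 3 diamonds, Il12rb1, Il18rap and Il19, stand among 16 coloured circles.

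Among the 25 receptors tested, the largest difference was that of Il12rb1, the chain that the IL-12 and IL-23 receptors share. Its level was -0.02, 0.53 and 0.26 on induced arrays 1, 2 and 3 and -4.51, -3.76 and -3.50 on the uninduced arrays. The 2 groups lay far apart, and all 6 arrays were well above background. The difference was 4.18 (SE 0.29, adjusted p 0.00166), an 18.2-fold rise, and it ranged from 3.89 to 4.39 with 1 array left out, always past the threshold. The gene's other probe, A_55_P2034032, did not show this, at -2.57 ± 0.17 in induced and -2.27 ± 0.48 in uninduced cells (SD, n = 3), a difference of -0.30, where probe A_55_P2034033 gave the rise. With the mean of both probes the gene rose by 1.94 (adjusted p 0.0105), and with the normexp background correction probe A_55_P2034033 rose by 2.75. Il12rb2, the chain that pairs with it in the IL-12 receptor, averaged -2.08 ± 0.18 in induced and -1.67 ± 0.73 in uninduced cells and did not pass (adjusted p 0.534). Il23r, its partner in the IL-23 receptor, was above background on no array.

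Il18rap encodes the accessory chain that lets the IL-18 receptor signal. Its level was -4.75, -3.92 and -4.81 on induced arrays, and -6.43, -7.45 and -6.58 on uninduced arrays, none of which was well above background. All induced arrays were higher than all uninduced ones, but the probe was dim throughout. It entered the test through the induced arrays alone, the group where it was high. Against the lowest signal counted as above background, or the probe's own where that was higher, it was at least 1.85-fold higher in induced cells (fitted difference 2.33, SE 0.35, adjusted p 0.0146). The normexp correction ended this call and turned the direction (-0.07, adjusted p 0.864), and in the authors' table, read by the array each column tracked, the rise of 1.32 missed the threshold (adjusted p 0.0729).

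The 2 receptors for IL-1 itself went the other way. Il1r1, the signalling receptor, had levels of 2.42, 0.56 and -0.32 on induced arrays 1, 2 and 3 and 3.79, 2.71 and 1.60 on the uninduced ones. Il1r2, a decoy receptor that binds IL-1 without signalling, had levels of -0.72, -2.004 and -3.42 on induced and 1.48, 0.48 and -0.999 on uninduced arrays. For both genes the groups overlapped, since the level differed between replicate numbers by more than it did between groups, but the induced array was the lower one in every pair. Il1r1 fell with the block by 1.81 (adjusted p 0.00499, and 0.253 without it), but with spike-in scaling and the block the difference was -0.69 and the call was lost (adjusted p 0.0543). Il1r2 fell with the block by 2.37 (adjusted p 0.00133, and 0.168 without it), its pairs lying close together at -2.21, -2.48 and -2.42. Il1rap, the accessory chain that Il1r1 needs for signalling, averaged -3.04 ± 0.29 in induced and -2.95 ± 0.11 in uninduced cells and passed in neither fit (adjusted p 0.792). In the reference's gene order Il1r2, Il1r1, Il1rl2, Il1rl1, Il18r1 and Il18rap are 6 neighbours on chromosome 1, so this run held both genes that fell, a gene that rose and 3 that were not tested.

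Among common gamma chain receptors, Il2rg encodes the chain itself, used by the receptors of IL-2, IL-4, IL-7, IL-9, IL-15 and IL-21. Il2rg read 1.07, 1.32 and 1.57 on induced arrays and -0.38, 0.47 and 0.46 on uninduced arrays. The groups did not overlap, and the gene was well above background throughout. It rose with the block by 1.14 (adjusted p 0.0113), 2.20-fold, and missed the threshold without it (0.0639). Il2rb, which binds IL-2 and IL-15, read -2.60, -3.84 and -3.98 on induced and -3.92, -5.85 and -4.66 on uninduced arrays. Its groups overlapped slightly, and it was above background on 1 uninduced array, so that it entered the test through the induced arrays alone. It rose with the block by 1.33 (adjusted p 0.0312, and 0.238 without it), but with normexp and the block it did not pass (adjusted p 0.386). Il15ra, which presents IL-15, averaged 2.09 ± 0.28 in induced and 2.11 ± 0.32 in uninduced cells, and Il4ra and Il9r passed in neither fit. The 2 kept probes of Il4ra differed in sign, at -0.35 and 0.00. Il7r, the IL-7 receptor chain of lymphoid progenitors, was above background on 1 array of each group and was not tested.

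Of the 4 IL-17 receptor genes tested, 3 rose with the block, where 9.37% of all genes rose, and missed the threshold without it. Il17rc, the partner of Il17ra for IL-17A and IL-17F, read 2.03, 0.97 and 1.25 on induced arrays and 0.41, -0.04 and 0.45 on uninduced arrays. Il17rd, also known as an inhibitor of FGF signalling, read 1.22, 0.82 and 1.26 on induced and 0.14, 0.15 and 0.63 on uninduced arrays. Il17re, which pairs with Il17ra to bind IL-17C, read -4.14, -2.54 and -3.19 on induced and -4.90, -4.91 and -5.97 on uninduced arrays. In all 3 genes every induced array was above every uninduced one. The differences were 1.15 for Il17rc (adjusted p 0.0192 with the block and 0.0824 without), 0.80 for Il17rd (0.0244 and 0.0801) and 1.97 for Il17re (0.0327 and 0.0618). Il17re, which entered the test through the induced arrays alone, was above background on 2 uninduced arrays, and with normexp and the block it missed the threshold (0.37, adjusted p 0.0861). Il17ra, the chain common to these receptors, had levels of -2.48, -1.34 and -2.18 on induced and -1.86, -1.83 and -1.54 on uninduced arrays, which overlapped, and passed in neither fit. Il17re and Il17rc are neighbours on chromosome 6.

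Il10ra, the chain that binds IL-10, read -3.92, -1.98 and -1.43 on induced arrays and -5.11, -4.90 and -4.94 on uninduced arrays. The groups did not overlap, the induced array of replicate 1 being well below the other induced ones, and the probe was above background on 2 uninduced arrays. It entered the test through the induced arrays alone. Il10ra rose with the block by 2.54 (adjusted p 0.0227, and 0.0602 without it), and by 0.84 with normexp and the block. Of the 6 fits without a block that left 1 array out, 1 passed, that without induced replicate 1 (difference 3.28, adjusted p 0.00438). The others did not, with adjusted p up to 0.171. Il10rb, the chain that the receptors of IL-10, IL-22 and other cytokines share, averaged -0.47 ± 0.28 in induced and -0.18 ± 0.34 in uninduced cells and passed in neither fit. Of the other members of this group, Il20rb and Il22ra1 passed in neither, and Il20ra and Il22ra2 were not tested.

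Of the IL-6 group, the receptors Il6st, Il11ra1, Il6ra and Il27ra were read on all arrays and passed in neither fit. Il6st, the gp130 chain that passes on the signals of IL-6, IL-11, IL-27 and oncostatin, had levels of 3.16, 2.51 and 2.39 on induced and 3.57, 2.78 and 2.58 on uninduced arrays (difference -0.29, SE 0.32, adjusted p 0.623). Il11ra1, which binds IL-11, had levels of 4.21, 5.19 and 5.22 on induced and 4.55, 5.26 and 5.26 on uninduced arrays (difference -0.15, SE 0.34, adjusted p 0.815). For both the groups overlapped. Il6ra, which binds IL-6, averaged -1.40 ± 0.42 in induced and -0.99 ± 0.45 in uninduced cells (adjusted p 0.463), and Il27ra differed by -0.09. With spike-in scaling the differences of Il6st, Il11ra1 and Il6ra were above 0, at 0.84, 0.98 and 0.72, so that no direction is given for them. Il13ra1 and Il13ra2, a signalling and a decoy receptor for IL-13, differed by -0.82 and -0.75 and did not pass.

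**Figure D3:**
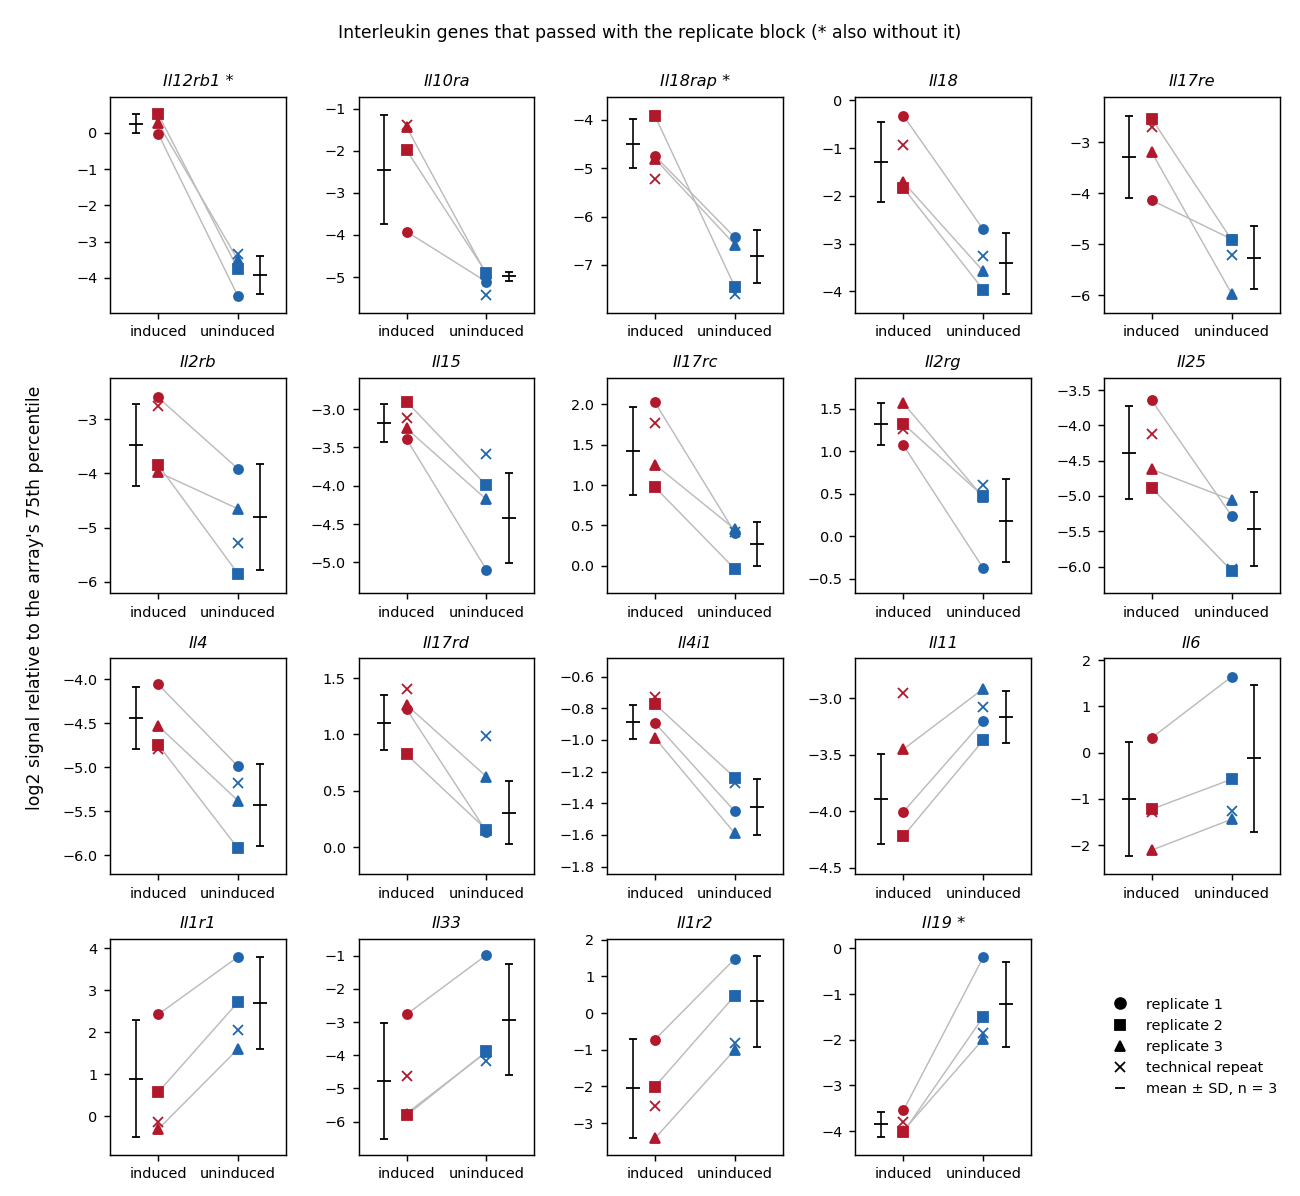
Log2 level relative to the array's 75th percentile of the 19 genes that passed with the replicate block, on induced (left, red) and uninduced (right, blue) arrays, with lines joining arrays of 1 replicate number, crosses for the technical repeat arrays, and bars for the mean ± SD of the 3 replicates. The lines of each gene slope one way, also where the groups overlap, as for Il1r1, Il1r2, Il33 and Il6. The genes were picked by the fit that compares these same pairs.

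Among ligands, Il19 was the gene that passed without the block. It encodes a cytokine of the IL-10 group that acts through Il20ra and Il20rb. Its level was -3.55, -4.03 and -3.99 on induced arrays and -0.19, -1.50 and -1.99 on uninduced arrays. The groups did not overlap, and all 6 arrays were well above background. Il19 fell by 2.63 (SE 0.45, adjusted p 0.0215), and its second probe, A_55_P2001489, differed by -2.08. The call rested on few arrays: it was lost without induced replicate 1, 2 or 3 (adjusted p 0.0519, 0.0776 and 0.0713) and without uninduced replicate 2 (0.0672), and with spike-in scaling the difference was -1.50 (0.173). The adjusted p was 0.00533 with the block. Il24, Il20, Il19 and Il10 are neighbours on chromosome 1. Of the other 3, Il24 had the same mean in both groups, -3.69 ± 0.06 in induced and -3.69 ± 0.12 in uninduced cells, and Il20 and Il10 were above background on no array.

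Of 9 IL-1 family ligands 3 were tested, of which Il18 rose with the block, Il33 fell with it and Il1f10 passed in neither fit. Il18, an activator of NK and T cells that Casp1 matures, read -0.32, -1.84 and -1.71 on induced arrays and -2.71, -3.97 and -3.58 on uninduced arrays. Il33, a nuclear cytokine of endothelium and other barrier cells, read -2.77, -5.81 and -5.76 on induced and -0.98, -3.88 and -3.90 on uninduced arrays. The groups of Il18 did not overlap, while those of Il33 did, since replicate 1 was far higher than the other numbers in both groups. Il18 rose with the block by 2.13 (adjusted p 0.00218), 4.37-fold, and missed without it (0.0559). Il33 fell with the block by 1.86 (adjusted p 0.00168, and 0.367 without it), with pairs at -1.79, -1.93 and -1.85. It entered the test through the uninduced arrays alone and was above background on 1 induced array, that of replicate 1, so that pairs 2 and 3 are set against a signal not told from background. With normexp and the block the difference was 1.04 for Il18 and -1.08 for Il33, both past the threshold. Il1a was above background on no array. Il1b, too seldom read to be tested, had levels of -4.53, -4.95 and -6.12 on induced and -7.84, -7.26 and -6.71 on uninduced arrays.

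Of the common gamma chain ligands, Il15 and Il4 could be tested. Il15, a growth factor of NK cells, read -3.39, -2.90 and -3.25 on induced arrays and -5.10, -3.997 and -4.18 on uninduced arrays. Il4, a cytokine of helper T cells, mast cells and basophils, read -4.06, -4.74 and -4.53 on induced and -4.99, -5.92 and -5.38 on uninduced arrays, on 1 of which it was above background. The groups of neither gene overlapped, but Il4 entered the test through the induced arrays alone. Il15 rose with the block by 1.24 (adjusted p 0.0144, and 0.0728 without it) and Il4 by 0.99 (0.00972 and 0.112). Both are dim: with normexp and the block Il15 differed by 0.20 (adjusted p 0.237) and Il4 by -0.13 (0.442), which ended both calls and turned the direction of Il4.

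Il6, the ligand supplied in the first medium, had levels of 0.32, -1.22 and -2.10 on induced arrays 1, 2 and 3 and 1.64, -0.57 and -1.44 on the uninduced ones. The groups overlapped, with the induced array lower in each pair. Il11, a related cytokine, had levels of -4.01, -4.22 and -3.45 on induced and -3.20, -3.37 and -2.91 on uninduced arrays, which did not overlap. Il6 fell with the block by 0.88 (adjusted p 0.0328, and 0.594 without it) and Il11 by 0.73 (0.0224 and 0.146), although with spike-in scaling both differences were above 0, at 0.25 and 0.40. Without uninduced replicate 1 the difference of Il6 was 0.005 in the fit with no block. Il27, whose product joins Ebi3 to form IL-27, averaged -0.62 ± 0.11 in induced and -0.45 ± 0.15 in uninduced cells and passed in neither fit.

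Among IL-17 ligands, Il25, which acts through Il17ra and Il17rb, read -3.65, -4.89 and -4.62 on induced arrays and -5.28, -6.06 and -5.06 on uninduced arrays, 1 of them above background. No induced array was as low as an uninduced one, but the gene entered the test through the induced arrays alone. Il25 rose with the block by 1.08 (adjusted p 0.0445, and 0.183 without it), but with normexp the difference was -0.15 and did not pass. Il17f, above background on induced arrays alone, averaged -5.41 ± 0.16 in induced and -5.90 ± 0.49 in uninduced cells, and its groups overlapped (adjusted p 0.329). Il17d had levels of 1.49, 1.62 and 1.72 on induced and 1.33, 2.32 and 2.60 on uninduced arrays and did not pass (adjusted p 0.436).

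Of the ligands outside these families, Il16, Il34 and Il3 passed in neither fit. Il34, which binds the macrophage growth factor receptor Csf1r, averaged -2.18 ± 0.45 in induced and -1.79 ± 0.29 in uninduced cells. Il16, a chemoattractant for CD4+ cells, ranged from -3.07 to -0.82 on induced and from -3.29 to -0.42 on uninduced arrays, so that replicate numbers differed far more than the groups. Il3, a growth factor of blood progenitors and mast cells, averaged -4.75 ± 0.49 in induced and -4.83 ± 0.35 in uninduced cells (adjusted p 0.895). Il4i1, a secreted enzyme that breaks down phenylalanine, read -0.89, -0.77 and -0.99 on induced arrays and -1.45, -1.24 and -1.59 on uninduced arrays, which did not overlap. It rose with the block by 0.54 (adjusted p 0.0375, and 0.106 without it). Il18bp, which neutralises IL-18, averaged -1.91 ± 0.23 in induced and -2.08 ± 0.22 in uninduced cells and passed in neither fit.

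Since Runx1 was the induced factor, the 250 bases before the start of each gene were searched on both strands for TGTGGT and TGCGGT, the letters of the motif that RUNX proteins bind. RefSeq promoters (GRCm38.p6) were at hand for 63 of the 80 genes. A match was found in 19 of the 63, or 30.2%, and in 20.9% of all 27025 genes with a promoter. Of the interleukin genes called in either fit and at hand here, 2 of 8 that rose had a match, Il18 and Il2rg, and 1 of 6 that fell, Il19. A match here describes letters, not a bound site, and most called genes that were searched had none in this window. Il12rb1, Il10ra, Il15, Il25 and Il2rb, which were also called, had no promoter at hand and were not searched. The promoters of Il18rap, Il19 and Il18 are shown as examples of a gene that rose with no match, a gene that fell with one and a gene that rose with one. They lie at chr1:40515112-40515361 (plus strand), chr1:130940116-130940365 (minus strand) and chr9:50554450-50554699 (plus strand). Each is given 5′ to 3′ along the gene, with capitals for the match, which begins 20 bases before the start in Il19 and 65 in Il18.
Il18rap: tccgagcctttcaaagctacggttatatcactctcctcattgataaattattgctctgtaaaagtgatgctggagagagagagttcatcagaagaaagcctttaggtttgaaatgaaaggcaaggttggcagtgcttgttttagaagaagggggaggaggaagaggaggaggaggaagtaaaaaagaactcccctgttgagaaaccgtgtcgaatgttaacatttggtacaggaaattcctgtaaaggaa
Il19: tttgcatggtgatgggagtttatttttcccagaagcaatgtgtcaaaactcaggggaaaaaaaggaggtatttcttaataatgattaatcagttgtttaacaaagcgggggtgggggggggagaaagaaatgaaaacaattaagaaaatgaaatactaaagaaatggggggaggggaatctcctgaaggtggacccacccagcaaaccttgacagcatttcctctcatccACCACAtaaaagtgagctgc
Il18: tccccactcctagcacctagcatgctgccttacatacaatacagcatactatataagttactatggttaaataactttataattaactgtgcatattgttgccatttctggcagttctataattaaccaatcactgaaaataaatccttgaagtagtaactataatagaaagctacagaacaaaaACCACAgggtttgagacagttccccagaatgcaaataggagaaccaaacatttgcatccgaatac

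Partner chains and signalling genes were read from the same fit for 61 genes, of which 56 were tested: 4 rose, 2 fell and 50 did not pass, or 10.71%, against 6.29% of all genes, and with the block 7 rose and 6 fell, or 23.2%, against 16.2%. Their median difference was 0.11, close to that of all genes. Stat4, the factor that IL-12 receptors activate, read -1.87, -0.66 and 0.08 on induced arrays and -3.86, -3.85 and -4.15 on uninduced arrays. All induced arrays were higher. Stat4 rose by 3.14 (SE 0.47, adjusted p 0.0133), missed the threshold without replicate 2 of either group (0.0563 induced, 0.0532 uninduced) and rose by 1.68 with normexp, where the adjusted p was 0.0606. Socs1, an inhibitor of JAK kinases, had levels of 1.74, 2.00 and 2.03 on induced and 0.05, -0.13 and 0.26 on uninduced arrays. It rose by 1.87 (SE 0.17, adjusted p 0.00302). Ptpn6, a phosphatase of blood cells that dampens cytokine signals, rose by 1.99 (SE 0.28, adjusted p 0.0110), with levels of 0.98, 1.85 and 1.62 on induced and -0.87, -0.24 and -0.43 on uninduced arrays. The other 19 tested JAK-STAT genes did not pass without the block, while Cish and Socs2, 2 inhibitors that STAT5 induces, fell with it by 0.94 and 0.72 (adjusted p 0.00991 and 0.0178). Both falls were lost with spike-in scaling and the block, where 0 partner and signalling genes fell.

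Among partner chains, Csf2rb2, which in mouse is a signalling chain for IL-3, had levels of 3.38, 3.50 and 3.95 on induced and 4.97, 5.21 and 5.25 on uninduced arrays. The groups did not overlap, and the gene fell by 1.53 (SE 0.19, adjusted p 0.00804). Csf2rb, the chain that IL-3, IL-5 and GM-CSF receptors share, did not pass. The 2 genes are near-identical in sequence, so that their probes may share signal. Cntfr, which binds the gp130 ligand CNTF, fell by 1.51 (SE 0.20, adjusted p 0.00902). With spike-in scaling neither of the 2 falls passed the threshold (-0.41 for Csf2rb2 and -0.38 for Cntfr), and with normexp Cntfr did not (-0.85, adjusted p 0.105). Of those called with the block alone, Lifr, which pairs with gp130, fell by 1.05 (adjusted p 0.0128, and 0.226 without it), and Ifnlr1, the interferon lambda receptor chain that pairs with Il10rb, fell by 0.66 (0.0367 and 0.232). These 2 falls were also lost with spike-in scaling and the block, where 0 partner and signalling genes fell. Csf2ra, which binds GM-CSF, rose by 0.60 (0.0302 and 0.253). Lif, the ligand gene of Lifr, differed by 1.37 (0.0318 and 0.168), but entered the test through the induced arrays alone and was above background on 1 uninduced array.

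Of 19 genes of IL-1 and IL-17 signalling and of maturation, 1 passed without the block. Casp1, the protease that matures IL-1 beta and IL-18, read -3.17, -3.36 and -3.52 on induced arrays and -4.76, -4.32 and -4.03 on uninduced arrays. Every induced array was higher. Casp1 rose by 1.02 (SE 0.22, adjusted p 0.0461), but passed with 1 of the 6 arrays left out (uninduced replicate 3) and not with the others, and with normexp the difference was 0.12 (0.722). Irak3, which restrains IL-1 receptor signalling, rose with the block by 1.002 (adjusted p 0.0239). Myd88, the adaptor of IL-1 and IL-18 receptors, and Traf3ip2, that of IL-17 receptors, passed in neither fit.

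**Figure D4:**
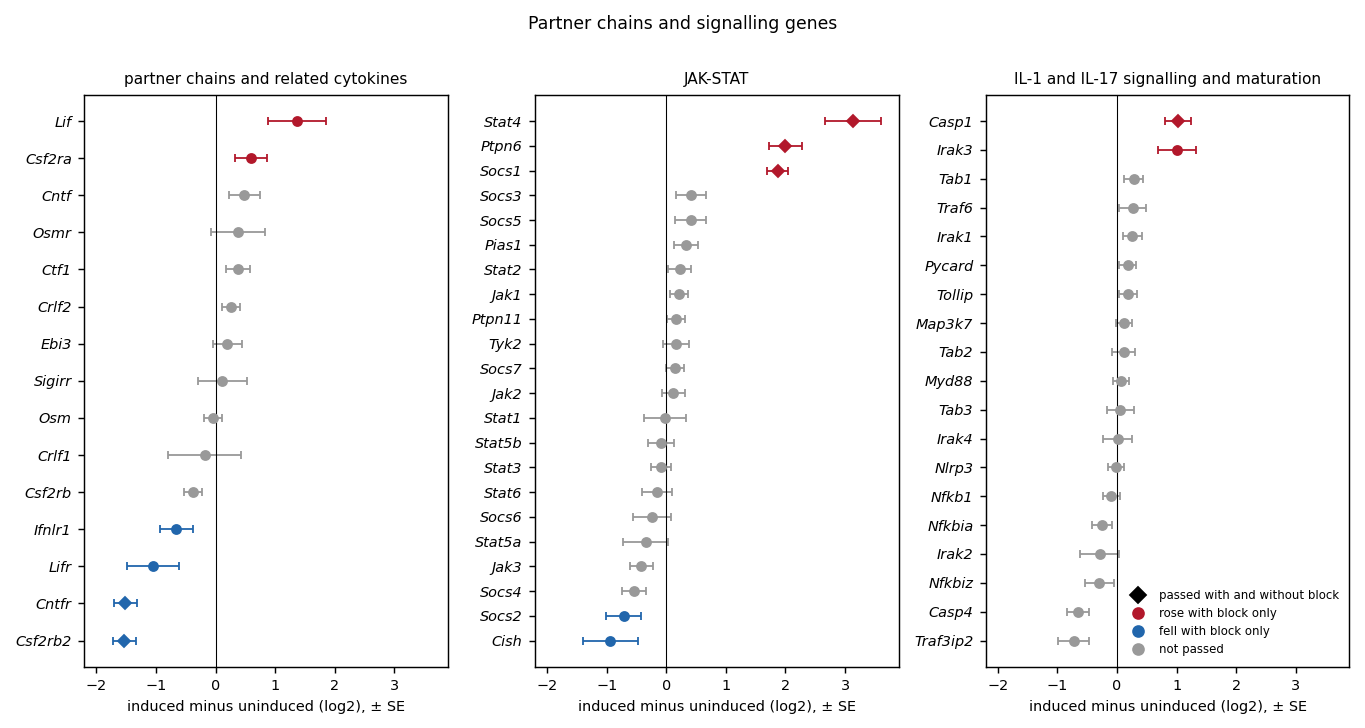
Difference in log2 level, induced minus uninduced, with its standard error from the fit without a block, for the 56 tested partner chains and related cytokines (left), JAK-STAT genes (middle) and genes of IL-1 and IL-17 signalling and maturation (right), with symbols as in the plot of interleukin genes. Stat4, Ptpn6, Socs1 and Casp1 are the diamonds above 0, and Csf2rb2 and Cntfr those below it.

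The technical repeat arrays, which entered no test, were set side by side. Of the 19 interleukin genes called with the block, 18 differed between them in the direction of the replicates, Il12rb1 by 3.88, Il10ra by 4.04 and Il1r2 by -1.70. The exception was Il11, at -2.95 on the induced and -3.08 on the uninduced repeat. Il6 was nearly level between them, at -1.27 on the induced and -1.26 on the uninduced repeat. The labels do not say which replicate's RNA they hold, so they add no replicate. Repeats of RNA that gave the calls would tend to show the same direction. No share among all genes called with the block is given beside the 18 of 19.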

How the data were processed

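Total RNA of 3 induced and 3 uninduced biological replicates and 1 technical repeat per group was measured on 8 Agilent arrays, grouped by their titles. The authors deposited the scanner output, whose spot intensity is on a linear scale and already background-subtracted in the processed signal, made per the file headers with Feature Extraction 10.7.3.1 (10.7.1.1 in the submitters' processing notes, which add limma). Their deposited value table was made by the authors in log2 units, and its normalization is stated by no label. Set against the scanner files, 6 of its 8 columns followed another array than their own and 2 their own, so it served as an alternative, both as named and by the array tracked.

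Outlier spots and control spots were left out, no spot was saturated, and log2 processed signals were set relative to each array's 75th percentile and averaged over the spots of a probe. Probes got gene names from RefSeq accessions (GRCm38.p6 table, names and gene order only): 26582 of 55681 probes had 1 symbol, 0 several and 29099 none. Probes well above background on each of the 3 arrays in 1 group or the other were kept, and the brightest kept one stood for its gene. The file headers name mm9, of which no coordinate is printed. Where a group's arrays were all near background, a fold is only bounded, relative to a floor of the processed signal that is not every probe's limit of detection. Group differences were fitted by lmFit and eBayes (limma 3.58.1 in R 4.3.3) without a block, by a two-sided test with p adjusted over 14509 genes (Benjamini-Hochberg). Standard errors and adjusted p are from this fit unless the block is named. The fit was tested on simulated data drawn with no effect shared by same-numbered arrays. That run does not check the fit with the block where such arrays are alike.

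Replicate numbers of the titles were checked as pairs: deviations from the group means of same-numbered arrays correlated at 0.646, 0.451 and 0.431 over genes. Those of differently numbered arrays correlated at -0.475 to 0.126, and deviations from a group mean sum to 0, which lowers these values. Same-numbered arrays were alike, so the fit with the block is given beside each result whose call it changes. The titles do not say what such arrays share, and a shared array brightness was not tested. The files held no mean signal, so the normexp alternative used median signals (offset 50), unlike the plan. The other alternatives were quantile normalization, median centring, 4 spike-in probes, 2 filters, the mean of probes, the technical repeats and each array left out. The number of arrays limits the precision.

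The members, the gene lists and the families were chosen with earlier results of these data known. Genes named are those past the threshold with or without the block, the next 3 by p, the 5 ligands and 10 receptors with the brightest probes, shared chains, genes read in 1 group alone, genes whose probes differ in sign, list genes past the threshold, and results given for a closer look. Other interleukin genes are named as partners, and Cish, Socs2, Lif, Lifr, Csf2ra, Ifnlr1, Il1f10, Irak3, Csf2rb, Myd88, Traf3ip2, Il1b, Il7 and Il7r were named after their values were seen. Some genes of the lists are not reported here.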

Additional observations from a re-analysis of the deposited data

Results flagged for a closer look

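Il1f6 and Il22ra2, which were well above background on no replicate array, were so on the induced technical repeat array, which entered no comparison. Il1f6, an IL-1 family ligand gene, read -5.31 there and -8.04 on the uninduced repeat, against -8.78 to -7.94 on the induced and -8.30 to -7.06 on the uninduced replicates. Il22ra2, which encodes a soluble binding protein for IL-22, read -5.61 on the induced and -6.14 on the uninduced repeat, against -6.50 to -6.39 on the induced and -7.72 to -6.69 on the uninduced replicates. Each rests on 1 array. Groups of 3 arrays were not searched for single outlying arrays.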

How the results depend on the processing

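The call of Il12rb1 was lost in the authors' table with columns as named (0.54), and held under the other 12 alternatives and the 6 fits with 1 array left out, from 1.94 to 5.31. Among all genes, 1359 rose and 986 fell with the replicate block, 1074 and 506 with the technical repeats added, 356 and 178 with no filter on dim probes, and 11 fell with spike-in scaling. The authors' table with columns as named gave 0 that rose and 0 that fell among all genes, interleukin genes and partner and signalling genes alike in limma, and at an unadjusted p under 0.05 it gave 132 and 91, 2 and 1, and 0 and 0. Set against the scanner files, its columns named for induced replicates 1 and 2 followed uninduced arrays, and that named for uninduced replicate 3 followed an induced array. This setting therefore compared groups that were mixed by tracked array. With 1 array left out, 274 to 540 genes rose and 105 to 283 fell, as did 2 to 4 and 0 to 1 interleukin genes and 2 to 5 and 2 partner and signalling genes. The block called 13 and 6 interleukin genes and 7 and 6 partner and signalling genes. Of interleukin genes, 1 rose with normexp, 7 with median centring, 10 with spike-in scaling (0 fell, and 1 at an unadjusted p under 0.05), 1 with genes above background on all 6 arrays and 9 with the technical repeats. Of partner and signalling genes, 2 rose and 1 fell with normexp, and 0 fell with spike-in scaling. The share of calls that rose was 65.7%, and 77.0% with median centring, 98.5% with spike-in scaling and 58.0% with the block.

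Alternatives added after seeing the data left out a pair or joined 2 choices. Without replicate 1, 2 or 3 the block gave 690, 645 and 1143 genes that rose and 493, 504 and 981 that fell, 7, 5 and 12 interleukin genes that rose and 4, 4 and 7 that fell, while 4 and 6 partner and signalling genes fell without replicate 1 and 3. Normexp with the block gave 2142 and 2296 genes, 7 and 11 interleukin genes and 8 and 11 partner and signalling genes, with 13 of the 19 interleukin calls kept and 16 in the same direction. Spike-in scaling with the block gave 12437 and 158 genes, or 86.8% of all, 35 and 3 interleukin genes, and 47 and 0 partner and signalling genes, with 16 of the 19 kept (Il1r1, Il6 and Il11 lost). This last setting was first left out after its result was seen and then restored.

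With spike-in scaling, with or without the block, differences turned above 0 for Il10rb (0.83), Il11 (0.40), Il11ra1 (0.98), Il12rb2 (0.72), Il13ra1 (0.31), Il13ra2 (0.38), Il15ra (1.11), Il16 (0.90), Il17d (0.66), Il17ra (0.87), Il1rap (1.03), Il22 (1.09), Il27 (0.95), Il27ra (1.04), Il34 (0.74), Il4ra (0.77), Il6 (0.25), Il6ra (0.72) and Il6st (0.84). With normexp, with or without the block, Il17f (-0.34), Il18bp (-0.026), Il18rap (-0.071), Il1f10 (-0.36), Il22ra1 (-0.37), Il24 (-0.29), Il25 (-0.15), Il3 (-0.32), Il4 (-0.13) and Il9r (-0.068) turned below 0 and Il15ra (0.014) above. Median centring turned Il11ra1 (0.006), Il15ra (0.14), Il1rap (0.064), Il22 (0.12) and Il27ra (0.066), quantile normalization Il1rap (0.046) and Il22 (0.12), the authors' table by tracked array Il1rap (0.040), Il22 (0.004) and Il27ra (0.039), and the technical repeats Il1f10 (-0.009) and Il24 (-0.13). The authors' table with columns as named turned Il11ra1 (0.60), Il12rb2 (0.28), Il15ra (0.39), Il16 (1.11), Il17d (0.21), Il17ra (0.32), Il27ra (0.14), Il34 (0.015), Il4ra (0.70), Il6ra (0.26), Csf2rb2 (0.11) and Cntfr (0.15) above 0 and Il17f (-0.047), Il17rc (-0.48), Il18 (-0.87), Il18bp (-0.20), Il18rap (-0.32), Il1f10 (-0.015), Il20rb (-0.48), Il25 (-0.52), Il2rb (-0.79) and Il4 (-0.34) below. With 1 array left out, Il11ra1 ranged from -0.39 to 0.18, Il15ra from -0.20 to 0.10, Il16 from -1.07 to 0.39, Il1rap from -0.18 to 0.075, Il20rb from -0.14 to 0.42, Il22 from -0.22 to 0.29, Il24 from -0.048 to 0.069, Il27ra from -0.22 to 0.073, Il3 from -0.20 to 0.27, Il6 from -1.54 to 0.005 and Il6st from -0.53 to 0.005. In the authors' table with columns as named, the compared groups were mixed by the array each column tracked. The cause of the turned directions was not tested. These lists of turned directions do not cover Cish, Socs2, Lifr, Ifnlr1 and the other partner and signalling genes called with the block alone. All 8 arrays shared 1 slide and 1 scan time, so these could not be run as blocks. The signal over background limits the dim genes: 7 of the 19 genes called with the block were not above background on all 6 arrays.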
